A study of Mus musculus with 27 samples.

Results

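The genes described here build the calcium store of the heart muscle cell and move calcium out of it and back. The 10 members were taken by symbol from the gene tables: Ryr2, Casq2, Trdn, Jph2 and Fkbp1b on the release side, Atp2a2, Pln and Sln on the pump side, and Cacna1c and Slc8a1 at the cell surface. All 10 were found among the 24025 genes of the bulk table and among the 19010 genes of the single-cell table. The study asked how mouse hearts that lack the long noncoding RNA gene Hand2os1, called Hand2as in the sample labels, differ from control hearts. All mice were C57BL/6. Bulk RNA-seq was made from hearts at E11.5 and from ventricles at E16.5 (E, embryonic day), in each case with 3 libraries of Hand2asF/+ (written F/+ here) and 3 of Hand2asF/F (F/F), where F is the full-length knockout allele. At 8 weeks it was made from cardiomyocytes, with 5 libraries of Hand2as+/+ (+/+), 2 of Hand2asD/+ (D/+) and 6 of Hand2asD/D (D/D), where D is the 3′ distal knockout allele. Single-cell libraries of E11.5 hearts were made for 1 pool of 6 wild-type hearts (+/+) and 1 pool of 6 F/F hearts from heterozygote intercrosses. Both were sorted for living cells. The embryonic bulk controls thus carried 1 F allele, no group held both alleles, and the labels do not say whether bulk libraries came from separate animals, so the p-values measure only the spread between these samples.

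In a heart muscle cell each beat starts with calcium that enters through the L-type channel, whose pore is made by Cacna1c. This calcium opens the ryanodine receptor Ryr2 in the membrane of the sarcoplasmic reticulum, and the store empties into the cell. Casq2 binds calcium inside the store, Trdn anchors it to the receptor, Jph2 holds the store membrane next to the surface membrane, and Fkbp1b binds the receptor. The pump SERCA2, made by Atp2a2, refills the store, and the small membrane proteins Pln and Sln inhibit it. The exchanger Slc8a1 moves calcium out of the cell in return for sodium.

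Values in the bulk table were read as FPKM, mapped fragments scaled by transcript length and library total. The unit was inferred from the values, and levels may be compared between genes only if it holds. The values summed to 334194 to 586795 per library with 9495 to 11641 genes at 1 FPKM or more, and the read depth is unknown. Stage, tissue and control genotype changed together between the E11.5, E16.5 and 8-week samples and cannot be told apart, and in bulk samples fewer cells of a type and less RNA per cell cannot be told apart either. The summed level of all 11 cardiomyocyte markers was 6740 to 9799 FPKM at E11.5, 16480 to 20200 at E16.5 and 34842 to 47789 at 8 weeks. The summed level of all 8 atrial markers was 1774 to 2744, 517 to 678 and 48.9 to 345 FPKM. Of this, the atrial light chain gene Myl4 alone was 1630 to 2565 FPKM at E11.5 and 474 to 633 at E16.5. Erythroid markers, 8 of 9 in the table, summed to 39094 to 135536 FPKM at E11.5, 144 to 8101 at E16.5 and 1.26 to 154 at 8 weeks. Mesenchymal markers summed to 386 to 549, 1193 to 1369 and 23.3 to 64.5 FPKM. Gapdh, a glycolytic enzyme used in nearly all cells, was at most 5.09 FPKM in the 12 embryonic libraries and at least 980 FPKM at 8 weeks. The part of these markers and of Gapdh in the stage differences below was not tested. The targeted transcript, listed as LOC102636514, was at 0 in every E11.5 library and so does not check those labels. It was present in the F/+ libraries at E16.5 and listed at 0 in F/F. It was 6.9 to 13.5 FPKM in 4 of the +/+ libraries but at 0 in the library labelled +/+ replicate 5. In the single-cell table the target, Gm28063, had 1 UMI (unique molecular identifier, 1 counted molecule) in the library labelled +/+ and 9 in the library labelled F/F. This is the reverse of what these labels would give, but so few UMIs among 38302758 and 51432290 cannot decide whether the labels are right.

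Development from E11.5 to E16.5 was compared within F/+ and within F/F with limma on log2(FPKM + 1), which understates the change of low genes. In F/+ 5 of the 10 members rose (Trdn, Casq2, Cacna1c, Jph2 and Atp2a2) and 2 fell (Pln and Sln) at a Benjamini-Hochberg adjusted p under 0.05. Of all genes tested 49.5% passed, 18.3% as higher and 31.2% as lower. In F/F 4 members rose (Trdn, Casq2, Cacna1c and Jph2) and Pln and Sln fell, against 50% of all genes, 18.8% higher and 31.2% lower. From E16.5 F/+ to 8-week +/+ 6 members rose (Pln, Casq2, Sln, Ryr2, Atp2a2 and Jph2) and 3 fell (Fkbp1b, Trdn and Slc8a1), against 67.9% of all genes, 23.6% higher and 44.2% lower. Without regard to the test, the groups did not overlap for 8 members in F/+ (5 higher, 3 lower, beside 59.9% of all genes), 6 in F/F (4 and 2, beside 58.5%) and 8 at 8 weeks (5 and 3, beside 65.6%). The median log2 change of the members was 0.31 in F/+, 0.38 in F/F and 2.03 at 8 weeks, beside −0.18, −0.16 and −0.35 over all genes tested. With scaling to median ratios the median over all genes moved to 0.01, 0.02 and 0.05, and the split of all called genes moved from 2088 higher and 3568 lower to 2922 and 2759 in F/+, from 2151 and 3561 to 2895 and 2787 in F/F, and from 2704 and 5057 to 3878 and 3412 at 8 weeks. With that scaling the members stood at 5 higher and 2 lower in F/+, 5 and 2 in F/F, and 7 and 1 at 8 weeks.

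**Figure D1:**
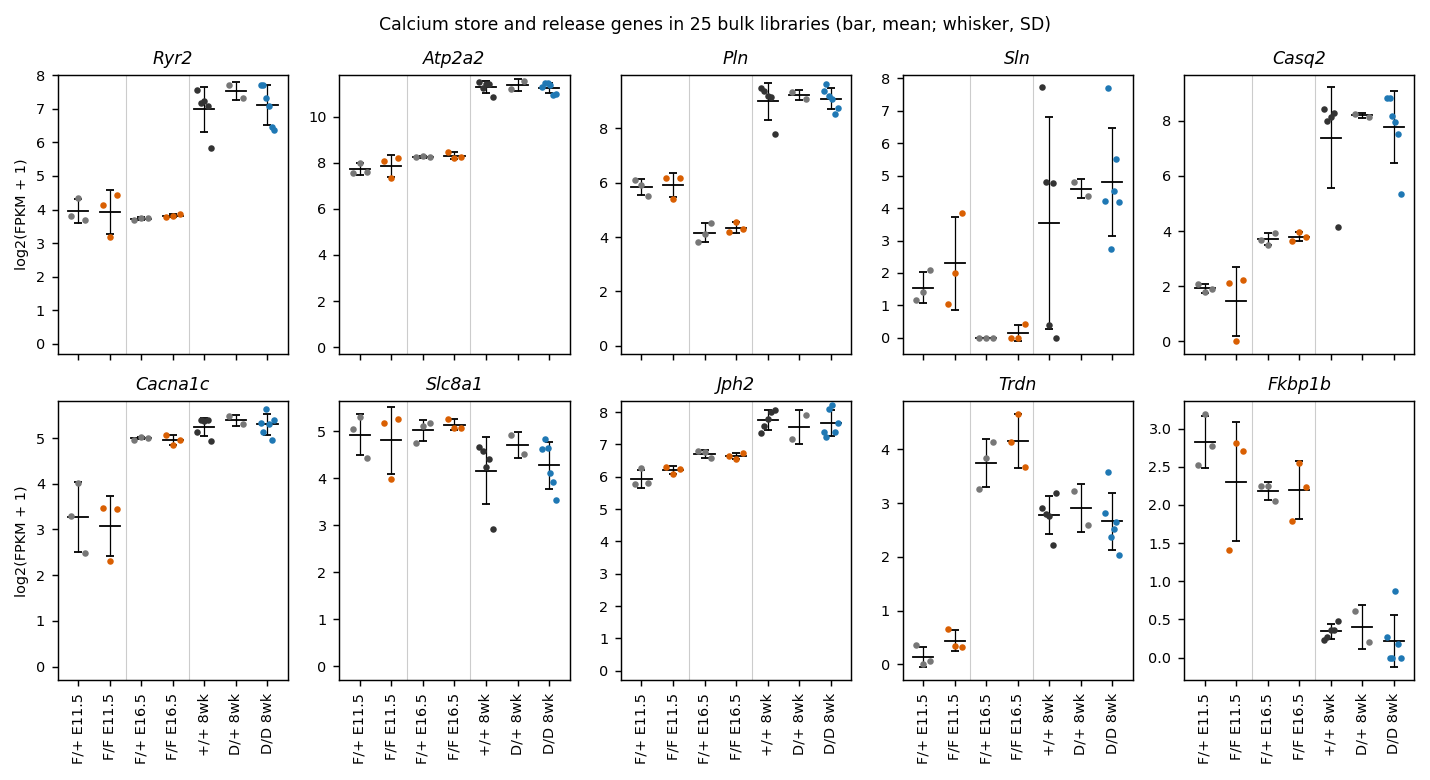
Level of each member in each of the 25 bulk libraries (vertical axis, log2(FPKM + 1)), by stage and genotype, with 1 point per library, a bar at the mean and whiskers of 1 SD. Pln, Ryr2, Atp2a2 and Casq2 sit far higher in all 8-week groups than at E16.5, Fkbp1b sits lower, and the genotypes of 1 stage lie over each other.

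Ryr2, Pln and Casq2, of which Ryr2 is the release channel, Pln the pump's inhibitor and Casq2 the calcium binder of the store, are 3 of the members that rose from the E16.5 to the 8-week controls, and their promoters are shown to compare the sequence at the start of genes that moved together. Each sequence runs from 250 bases before to 50 after the RefSeq start on GRCm38.p6, and capitals mark CANNTG, the E-box letters that HAND2 and other basic helix-loop-helix factors can bind. The Ryr2 promoter is chr13:12106896-12107195 on the minus strand, Pln is chr10:53337436-53337735 on the plus strand and Casq2 is chr3:102086165-102086464 on the plus strand.
Ryr2: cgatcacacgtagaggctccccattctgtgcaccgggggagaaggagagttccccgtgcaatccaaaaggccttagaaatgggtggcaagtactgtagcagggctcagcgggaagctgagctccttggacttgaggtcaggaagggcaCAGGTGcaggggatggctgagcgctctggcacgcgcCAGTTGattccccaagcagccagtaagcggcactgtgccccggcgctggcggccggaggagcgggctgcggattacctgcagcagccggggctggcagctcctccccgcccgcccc
Pln: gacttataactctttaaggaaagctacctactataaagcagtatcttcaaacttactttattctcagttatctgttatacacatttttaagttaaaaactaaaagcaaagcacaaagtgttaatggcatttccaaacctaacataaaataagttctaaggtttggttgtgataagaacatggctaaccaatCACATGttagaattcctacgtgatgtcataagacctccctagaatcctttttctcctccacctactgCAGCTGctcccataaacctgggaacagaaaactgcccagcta
Casq2: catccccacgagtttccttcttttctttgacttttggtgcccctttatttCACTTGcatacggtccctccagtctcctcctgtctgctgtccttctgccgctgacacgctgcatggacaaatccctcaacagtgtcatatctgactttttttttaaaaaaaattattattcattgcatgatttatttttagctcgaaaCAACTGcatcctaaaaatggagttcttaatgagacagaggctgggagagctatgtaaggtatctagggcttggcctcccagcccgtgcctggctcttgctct
Each of these promoters held 2 matches to CANNTG, at −102 and −66 in Ryr2, at −59 and +9 in Pln, and at −200 and −52 in Casq2, counted from the start. CANNTG is its own reverse complement and was found in 72.3% of the 32851 promoters of the table. It overlaps CATCTG, searched on both strands, which was in none of these 3 and in 17.2% of all promoters. The GATA letters AGATAA, searched on both strands, matched in Pln at −183 and are in 11.2% of promoters. TATAAA, likewise on both strands, matched in Pln at −219 and is in 13.6%. The G and C share of the sequence was 65.3% in Ryr2, 36% in Pln and 44.7% in Casq2, so the promoters differ in base composition. Over the 10 promoters listed for 7 members, 9 held CANNTG, counting the overlapping pair of Jph2 promoters, which share their match, as 2, and the Fkbp1b promoter held none of the 4 motifs. CATCTG was in 2 of the 3 promoters of Cacna1c, and AGATAA was also in Slc8a1. A match describes letters only. Atp2a2, Sln and Trdn had no entry.

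On the release side, Ryr2 was low and flat through the embryo and high in adult cardiomyocytes. Its level was 13.04, 19.4 and 11.9 FPKM in F/+ at E11.5 and 16.4, 8.12 and 20.7 in F/F. At E16.5 it was 11.9, 12.6 and 12.4 FPKM in F/+ and 12.7, 13 and 13.7 in F/F. The E11.5 and E16.5 values overlapped, and the log2 change was −0.22 (SE 0.27, limma adjusted p = 0.514) in F/+ and −0.10 (adjusted p = 0.782) in F/F. At 8 weeks Ryr2 was 188, 144, 150, 134 and 56.2 FPKM in +/+, 208 and 160 in D/+, and 80.8 at the lowest, 147 at the median and 207 at the highest of the 6 D/D libraries. Every 8-week library was above every embryonic one. The mean was 11 times that of E16.5 F/+ (135 ± 48.2 FPKM, SD, n = 5, against 12.3 ± 0.311, n = 3), and the log2 change was 3.25 (SE 0.34, limma adjusted p = 2.15e-08).

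Casq2, the high-capacity calcium binder, rose at both steps. It was 3.19, 2.42 and 2.75 FPKM in F/+ at E11.5 and 3.33, 0 and 3.67 in F/F, then 11.7, 10.4 and 14.3 in F/+ and 11.4, 14.8 and 12.8 in F/F at E16.5. No E16.5 value was as low as any at E11.5. The log2 change was 1.79 (SE 0.44, limma adjusted p = 0.00445) in F/+ and 2.35 (SE 0.44, adjusted p = 7e-04) in F/F. The F/+ call was lost with a pseudocount of 0.1 (adjusted p = 0.104) and in a fit over all 25 libraries (adjusted p = 0.0986). At 8 weeks Casq2 was 340, 253, 282, 311 and 16.6 FPKM in +/+, 305 and 282 in D/+, and 40.0, 266 and 459 at the lowest, median and highest of D/D. The library labelled +/+ replicate 5 stood far below the other +/+ libraries and just above the highest E16.5 library. From E16.5 F/+ the log2 change was 3.69 (SE 0.77, limma adjusted p = 0.00023) with a ratio of means of 19.8, and 4.51 without that library.

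Trdn, which links calsequestrin to the ryanodine receptor, was the member with the largest fitted rise from E11.5 to E16.5. It was 0.28, 0 and 0.05 FPKM in F/+ and 0.58, 0.27 and 0.25 in F/F at E11.5, then 8.63, 13.3 and 16.6 in F/+ and 16.6, 24.3 and 11.7 in F/F. The groups were far apart, with a log2 change of 3.61 (SE 0.28, limma adjusted p = 6.47e-07) in F/+ and 3.72 (SE 0.28, adjusted p = 5.58e-07) in F/F. In the single-cell libraries of E11.5 hearts, which the submitters' processing notes place on another build, cardiomyocyte-like cells held 1014 and 1362 Trdn UMIs, and Trdn was about as abundant there as Ryr2 (111 and 98.9 against 109 and 112 CPM, UMIs scaled to a common library total). The bulk values near 0 and these counts therefore differ, and the reason was not tested. At 8 weeks Trdn was 6.47, 5.93, 5.8, 3.65 and 8.11 FPKM in +/+, 8.38 and 5.01 in D/+, and 3.09, 4.98 and 10.9 at the lowest, median and highest of D/D. All +/+ values lay below those of E16.5 F/+. The E16.5 mean was 2.14 times that at 8 weeks (log2 change −0.97, SE 0.29, limma adjusted p = 0.00507), and the call was lost with scaling to median ratios (adjusted p = 0.112) and with the trend on transcript G and C share removed, an alternative chosen after seeing the data (adjusted p = 0.348).

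Jph2, the junctional membrane tether, rose by smaller amounts at each step. It was 53.5, 75.6 and 54.6 FPKM in F/+ and 78.7, 67.1 and 75.2 in F/F at E11.5, then 111, 107 and 94.5 in F/+ and 98.8, 93.5 and 105 in F/F at E16.5. The log2 change was 0.77 (SE 0.14, limma adjusted p = 0.000546) in F/+ and 0.42 (SE 0.14, adjusted p = 0.0233) in F/F, where the call was lost in the all-library fit (adjusted p = 0.161), with the G and C trend removed (0.286), with the replicate block (0.0611) and with a Y-linked covariate (0.0541). It was also lost without F/F E11.5 replicate 2, F/F E16.5 replicate 1 or F/F E16.5 replicate 3 (0.0596 to 0.0748). Adult Jph2 was 163, 189, 218, 258 and 269 FPKM in +/+, 144 and 238 in D/+, and 151, 185 and 297 at the lowest, median and highest of D/D. The adult levels all lay above the fetal ones, with a ratio of means of 2.1 and a log2 change of 1.04 (SE 0.22, limma adjusted p = 0.000189).

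Fkbp1b, the small protein bound to Ryr2, was the release-side member that was lowest in the adult. It was 4.73, 8.17 and 5.84 FPKM in F/+ and 1.65, 6.0 and 5.53 in F/F at E11.5, then 3.75, 3.75 and 3.14 in F/+ and 2.46, 4.88 and 3.71 in F/F. Neither embryonic change passed the test (log2 −0.65, SE 0.34, limma adjusted p = 0.13 in F/+, and −0.11, adjusted p = 0.806 in F/F), although the F/+ groups did not overlap. The F/+ fall passed only when these 2 groups were fitted alone (limma adjusted p = 0.0375). Adult Fkbp1b was 0.17, 0.21, 0.28, 0.29 and 0.4 FPKM in +/+, 0.52 and 0.15 in D/+, and from 0 to 0.83 with a median of 0.065 in D/D. All of these are below every embryonic value. The E16.5 F/+ mean was 13.1 times that of +/+, and the log2 change was −1.84 (SE 0.27, limma adjusted p = 2.32e-06).

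On the pump side, Atp2a2 was the most abundant member in every group. It was 190, 257 and 195 FPKM in F/+ and 270, 160 and 299 in F/F at E11.5, then 304, 317 and 303 in F/+ and 355, 295 and 303 in F/F at E16.5. The F/+ groups did not overlap and the log2 change was 0.54 (SE 0.20, limma adjusted p = 0.0389), but leaving out 1 library ended this call in 5 of 6 cases (adjusted p of 0.0758 to 0.123), as did no filter on low values (0.07), rescaling without haemoglobin (0.108) and the replicate block (0.089). In F/F the change was 0.43 (SE 0.20, adjusted p = 0.0879), and it passed with scaling to median ratios (adjusted p = 0.0194) or without F/F E11.5 replicate 3 (adjusted p = 0.0276). At 8 weeks Atp2a2 was 2920, 2418, 2755, 2757 and 1861 FPKM in +/+, 2369 and 3007 in D/+, and 2003, 2594 and 2854 at the lowest, median and highest of D/D. The adult level was 8.25 times the fetal one (2542 ± 423 FPKM, SD, n = 5, against 308 ± 7.93, n = 3), with a log2 change of 3.02 (SE 0.19, limma adjusted p = 2.8e-12).

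Pln, the pump's main inhibitor in the ventricle, fell and then rose. It was 67.3, 60.3 and 44.5 FPKM in F/+ and 71.3, 41.4 and 71.3 in F/F at E11.5, then 13.3, 16.2 and 22.2 in F/+ and 17.1, 22.7 and 18.5 in F/F at E16.5. Every E16.5 library was below every E11.5 library, by 1.69 on the log2 scale in F/+ (SE 0.24, limma adjusted p = 8.05e-05) and 1.58 in F/F (SE 0.24, adjusted p = 0.000144). Adult Pln was 715, 666, 584, 573 and 222 FPKM in +/+, 652 and 543 in D/+, and 371, 561 and 789 at the lowest, median and highest of D/D. The adult +/+ mean was 32.1 times that of E16.5 F/+, the largest ratio of means among the members not listed at 0 (log2 change 4.85, SE 0.30, limma adjusted p = 3.2e-12).

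The ratio of inhibitor to pump moved with Pln. The log2 ratio of Pln to Atp2a2 was −1.89 ± 0.35 at E11.5 F/+ and −4.11 ± 0.36 at E16.5 F/+ (SD, n = 3 each), a difference of −2.22. Groups of 3 cannot give an exact two-sided permutation p below 0.1, and 0.1 was reached here (adjusted p = 0.35 over 21 ratio tests). In F/F the difference was −2.01, with the same p values by the exact permutation test. At 8 weeks +/+ the ratio was −2.29 ± 0.46 (n = 5), 1.82 above E16.5 F/+ (exact permutation p = 0.0179, the smallest this design can give, adjusted p = 0.188). All 5 of the +/+ libraries were above all 3 of the F/+ libraries, so the direction was the same throughout, but no ratio passed the adjustment.

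Sln, the second pump inhibitor, best known from the atria, was the most variable member. It was 1.23, 1.68 and 3.22 FPKM in F/+ and 1.05, 2.98 and 13.5 in F/F at E11.5, and was listed at 0 in 5 of the 6 E16.5 libraries, with 0.34 in F/F replicate 3. The fall passed in both genotypes (limma adjusted p = 0.0277 in F/+ and 0.0047 in F/F), and no fold is given against groups at 0. Both calls were lost in the all-library fit (adjusted p = 0.373 in F/+ and 0.207 in F/F), and the F/+ call also in 5 of 6 fits with 1 library left out (0.05 to 0.093). Without F/F E11.5 replicate 3, at 13.5 FPKM, Sln fell below the filter on low values, so the F/F fall was not tested. The fall from E11.5 hearts to E16.5 ventricles went with the atrial marker sums given above, which were mostly Myl4, and their part was not tested. At 8 weeks Sln was 210, 26.8, 0.33, 26.2 and 0 FPKM in +/+, 26.8 and 19.9 in D/+, and 17.7, 205, 5.63, 21.98, 44.5 and 17.3 in D/D replicates 1 to 6. The rise over E16.5 F/+ passed (limma adjusted p = 0.0131) but was lost when only these 2 groups were fitted (adjusted p = 0.0669).

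At the cell surface, Cacna1c rose from E11.5 to E16.5, while Slc8a1 changed little over that step. Cacna1c was 8.87, 15.1 and 4.57 FPKM in F/+ and 10.0, 3.99 and 9.94 in F/F at E11.5, then 30.3, 31.4 and 31.1 in F/+ and 32.7, 27.8 and 29.97 in F/F at E16.5. The groups did not overlap, and the log2 change was 1.73 (SE 0.34, limma adjusted p = 0.00108) in F/+ and 1.88 (adjusted p = 0.000623) in F/F. The F/+ and F/F ranges overlapped at both days. At 8 weeks it was 34.0, 40.9, 40.2, 41.0 and 29.8 FPKM in +/+, 43.6 and 38.6 in D/+, and 30.2, 38.9 and 49.0 at the lowest, median and highest of D/D, a log2 change of 0.25 from E16.5 F/+ (SE 0.26, limma adjusted p = 0.406). With scaling to median ratios this change was 0.72 and passed (adjusted p = 0.0129), and rescaled without haemoglobin it was −0.12.

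Slc8a1, the exchanger, was 32.2, 38.2 and 20.7 FPKM in F/+ and 35.1, 14.9 and 37.2 in F/F at E11.5, then 26.1, 33.6 and 35.3 in F/+ and 37.6, 32.7 and 32.6 in F/F. These values overlapped, with log2 changes of 0.09 (SE 0.30, limma adjusted p = 0.82) and 0.33 (adjusted p = 0.374). At 8 weeks it was 24.4, 23.0, 17.8, 20.2 and 6.54 FPKM in +/+, 29.1 and 21.9 in D/+, and 10.6, 20 and 27.7 at the lowest, median and highest of D/D. The +/+ libraries all lay below E16.5 F/+, by 0.86 on the log2 scale (SE 0.35, limma adjusted p = 0.0353), but the call was lost without the library labelled +/+ replicate 5 (−0.55, adjusted p = 0.107) and with scaling to median ratios (adjusted p = 0.32). It was also lost with no filter (0.0568), the replicate block (0.0855), only these 2 groups (0.0582) and D/+ added to the controls (0.0689). Further losses came with the G and C trend removed (0.15) and without F/+ E16.5 replicate 2 (0.0936) or 3 (0.107).

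**Figure D2:**
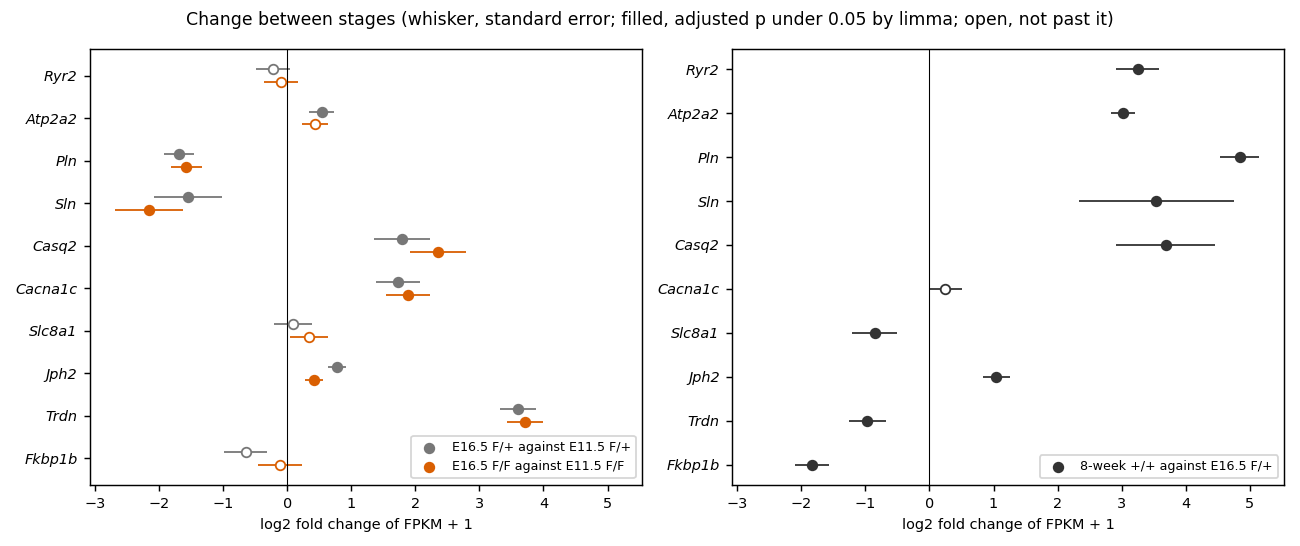
Log2 change of each member, fitted by limma on log2(FPKM + 1), for E16.5 against E11.5 in F/+ and in F/F and for 8-week +/+ against E16.5 F/+, with whiskers of 1 standard error and open points where the adjusted p was not under 0.05. Trdn, Casq2, Cacna1c and Jph2 lie above 0 in both embryonic contrasts, Pln turns from below 0 to 4.85, and the Sln values depend on the pseudocount because Sln was listed at 0 in E16.5 F/+.

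The store release channel and the surface channel changed places over these stages. The log2 ratio of Ryr2 to Cacna1c was lower at E16.5 than at E11.5 by 1.95 in F/+ and 1.98 in F/F (exact permutation p = 0.1 for each, the smallest possible, adjusted p = 0.35). At 8 weeks +/+ it was 1.74 ± 0.55 (SD, n = 5) against −1.26 ± 0.01 (n = 3) at E16.5 F/+, higher by 3.001 (exact permutation p = 0.0179, the smallest possible, adjusted p = 0.188). Ordered by mean FPKM, the E16.5 F/+ members ran from Atp2a2 (308) over Jph2 (104), Slc8a1 (31.7), Cacna1c (30.9), Pln (17.2), Trdn (12.8), Ryr2 (12.3) and Casq2 (12.1) to Fkbp1b (3.55) and Sln (listed at 0). Slc8a1 and Cacna1c differed by less than their spread, as did Pln and Trdn and, further down, Trdn, Ryr2 and Casq2. In 8-week +/+ the order was Atp2a2 (2542), Pln (552), Casq2 (241), Jph2 (219), Ryr2 (135), Sln (52.7), Cacna1c (37.2), Slc8a1 (18.4), Trdn (5.99) and Fkbp1b (0.27), where Casq2 differed by less than its spread from both Jph2 and Ryr2. The place of Sln rests on +/+ replicate 1, at 210 FPKM, since the other 4 libraries were at 0 to 26.8.

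Between genotypes no member was called at any stage. At E11.5 the 9 members that passed the filter of a mean of 1 FPKM (all but Trdn) ran from a log2 change of −0.52 for Fkbp1b (SE 0.39) to 0.74 for Sln (SE 0.61) in F/F against F/+, each with a limma adjusted p of 0.999. Of all genes 0.0087% passed (1 gene), and 502 had an unadjusted p under 0.05, among them no member. The summed atrial markers were 2342 to 2744 FPKM in F/F and 1774 to 2064 in F/+ at that day. Myl4 made up most of these sums (2191 to 2565 against 1630 to 1891). The atrial gene Mybphl overlapped between the genotypes (28.8 to 37.3 against 25.3 to 36.5). The ventricular (6172 to 6640 against 4690 to 5472) and endothelial (271 to 278 against 229 to 254) sums were likewise higher in F/F without overlap, and the part of these markers in the members' values was not tested. At E16.5 the 9 members tested (all but Sln) ran from −0.07 for Jph2 (SE 0.09) to 0.41 for Trdn (SE 0.29), with a limma adjusted p of 1 each, beside 0.00935% of all genes (1 gene) and 281 genes at an unadjusted p under 0.05, again with no member. Ryr2 was the single member whose E16.5 groups did not overlap, at 11.9 to 12.6 FPKM in F/+ and 12.7 to 13.7 in F/F, and its change was 0.09 (SE 0.09). Groups did not overlap in 6.78% of all genes there, and in 9.23% at E11.5 with no member. The erythroid marker sums at E16.5 were 8101, 7695 and 384 FPKM in F/F and 336, 144 and 377 in F/+. Their part in the members' values was not tested. The difference between the E16.5 and E11.5 genotype effects ran from −0.60 for Sln (SE 0.75) to 0.57 for Casq2 (SE 0.62) over the 10 members, with limma adjusted p of 0.999, beside 0.00875% of all genes. No member had an unadjusted p under 0.05 for this difference.

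At 8 weeks D/D was compared with +/+ and D/+ together, 6 libraries against 7. The 9 members tested (all but Fkbp1b) ran from −0.15 for Trdn (SE 0.23) to 0.97 for Sln (SE 1.11), with limma adjusted p of 1 each. Over all genes 0% passed, 175 had an unadjusted p under 0.05, and no member was among them. Against +/+ alone the range was −0.12 for Trdn (SE 0.26) to 1.27 for Sln (SE 1.24), again with no member called, 0% of all genes called and 104 genes at an unadjusted p under 0.05. With 1 library left out, the Sln value ran from 0.331 to 1.618 against both controls and from 0.386 to 2.317 against +/+. Without the library labelled +/+ replicate 5, the members' median against +/+ went from 0.093 (6 of 9 positive) to −0.14 (1 of 9). No member separated D/D from its controls, and 0.0293% of all genes did (0.0683% against +/+ alone). In simulated data a log2 change of 1 was found by the same test for 72% of the altered genes at 8 weeks, 87% at E16.5 and 35% at E11.5, where a change of 2 was found for 85%. These rates are not rates for the members. In D/D against both controls the SE was 1.11 for Sln and 0.70 for Casq2. None of the log2 ratios of Pln to Atp2a2, Sln to Pln or Ryr2 to Cacna1c passed between genotypes (exact permutation tests, adjusted p of 0.865 to 1).

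The 8-week libraries differed among themselves by more than the genotypes did. Sln was 210 FPKM in +/+ replicate 1 and 205 in D/D replicate 2, and at most 44.5 in the other 11. The atrial light chain gene Myl4 was 229 and 252 FPKM in those same libraries and 2.05 to 74.1 in the others, and the atrial gene Mybphl was 33.8 and 30.2 FPKM, against 0.1 to 10.5. The other 6 atrial markers did not peak there, with sums of 73.5 and 63.5 FPKM against 35.1 to 75.4 in the other 11 libraries. The lowest Sln values, 0.33 and 0 in +/+ replicates 3 and 5, went with Myl4 at 3.16 and 2.05 FPKM and Mybphl at 0.1 and 0.73. Bmp10, a right atrial gene, was 33.9 FPKM in D/D replicate 2 and 3.27 in +/+ replicate 1. The part of atrial RNA in the spread of Sln was not tested.

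**Figure D3:**
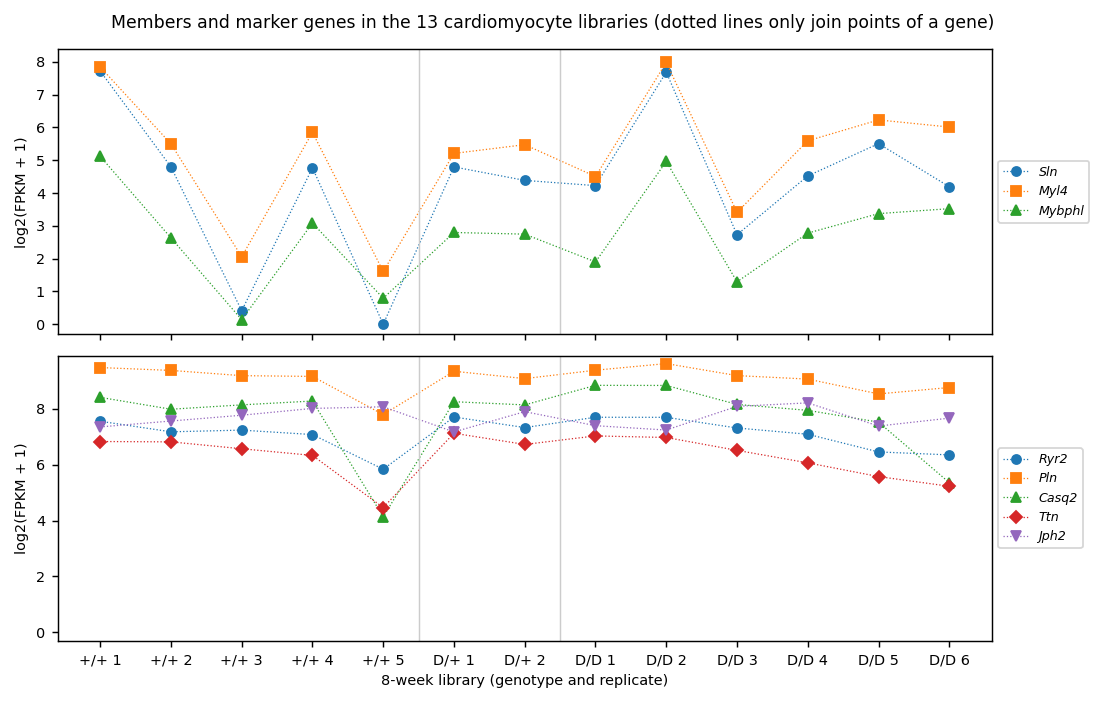
Level in each of the 13 libraries at 8 weeks on a log2(FPKM + 1) axis, with 1 column of points per library in +/+, D/+ and D/D and dotted lines that only join the points of a gene. Sln, Myl4 and Mybphl peak together in +/+ replicate 1 and D/D replicate 2. Ryr2, Pln, Casq2 and Ttn are low in D/D replicates 5 and 6 and lowest in the library labelled +/+ replicate 5, where Jph2 is not low. Jph2 is 166 and 203 FPKM in D/D replicates 5 and 6, within the range of the other D/D libraries.

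A further split ran across the release genes. The library labelled +/+ replicate 5 had the lowest Ryr2, Pln, Casq2, Slc8a1, Cacna1c and Atp2a2 of all 13 libraries, while its Jph2, at 269 FPKM, was the highest of +/+. D/D replicates 5 and 6 were low in Ryr2 (87.0 and 80.8 FPKM) and in Casq2 (184 and 40.0). Ttn, the giant sarcomere protein with no role in the store, was 21.1, 46.7 and 36.5 FPKM in these 3 libraries and 66.1 to 139 in the other 10. Across 9834 genes a library's deviation correlated with transcript G and C share at r = 0.5 in +/+ replicate 5, 0.45 in D/D replicate 6, 0.45 in D/D replicate 4 and 0.17 in D/D replicate 5, and at −0.56 to −0.36 in 5 libraries (+/+ replicates 1 and 2, D/+ replicate 1, D/D replicates 1 and 2). These correlations run over genes, which are not independent replicates. Jph2 has 61.8% G and C in its transcript, while Pln has 38.6%, Slc8a1 40.2% and Trdn 36.8%. Ryr2 (49.6%), Casq2 (47.2%), Atp2a2 (50.8%) and Cacna1c (50.3%), also lowest in +/+ replicate 5, lie nearer the median of 51% over genes. Trdn, with the lowest share, was highest of +/+ in that library, at 8.11 FPKM. The part of base composition in the levels of the members was not tested. Within the 10 libraries other than +/+ replicate 5 and D/D replicates 5 and 6, D/D stood above its controls by 0.10 (Ryr2), 0.04 (Pln), 0.24 (Casq2), 0.11 (Jph2) and 0.31 (Sln) on the log2 scale, 4 against 6 libraries. The remaining members were at 0.07 (Trdn), 0.01 (Atp2a2), 0.01 (Cacna1c), 0.0 (Slc8a1) and −0.05 (Fkbp1b). Within the 5 libraries with the most negative correlation the differences were 0.22 for Ryr2 and 0.62 for Casq2, and within the other 8 they were −0.07 and 0.07. In the same sets they were 0.18 and 1.85 for Sln, 0.22 and −0.3 for Trdn, and −0.04 and −0.1 for Jph2. Atp2a2 had 0.07 and −0.12, Pln 0.1 and 0.08, Cacna1c −0.1 and 0.07, Slc8a1 0.01 and 0.03, and Fkbp1b −0.23 and −0.09. Both splits were made from the data, after seeing them.

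Casq1 and Casq2 went opposite ways over the stages, and 2 further pairs of related genes are given beside them. Casq1, the calsequestrin of skeletal muscle, was 133 ± 21.7 FPKM in E11.5 F/+, 39.3 ± 9.6 in E16.5 F/+ (n = 3 each) and 6.48 ± 2.43 in 8-week +/+ (n = 5), while Casq2 went from 2.79 over 12.1 to 241. Casq1 fell by 1.75 (SE 0.20, limma adjusted p = 1.58e-05) and then by 2.46 (SE 0.32, adjusted p = 5.1e-07) on the log2 scale. Cacna2d2, a channel accessory subunit, fell from 44.4 over 7.07 to 1.53 FPKM (log2 change −2.44 at the first step, SE 0.37), and its relative Cacna2d1 had means of 1.66, 4.02 and 8.22. Fkbp1a, the close relative of Fkbp1b, was far more abundant, at 262 ± 40.5, 175 ± 12.4 and 91.2 ± 13.5 FPKM, and fell by 0.57 (limma adjusted p = 0.0157) and 0.94 (adjusted p = 6.28e-05). Cacna2d1 and Fkbp1a were chosen after their values were seen.

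**Figure D4:**
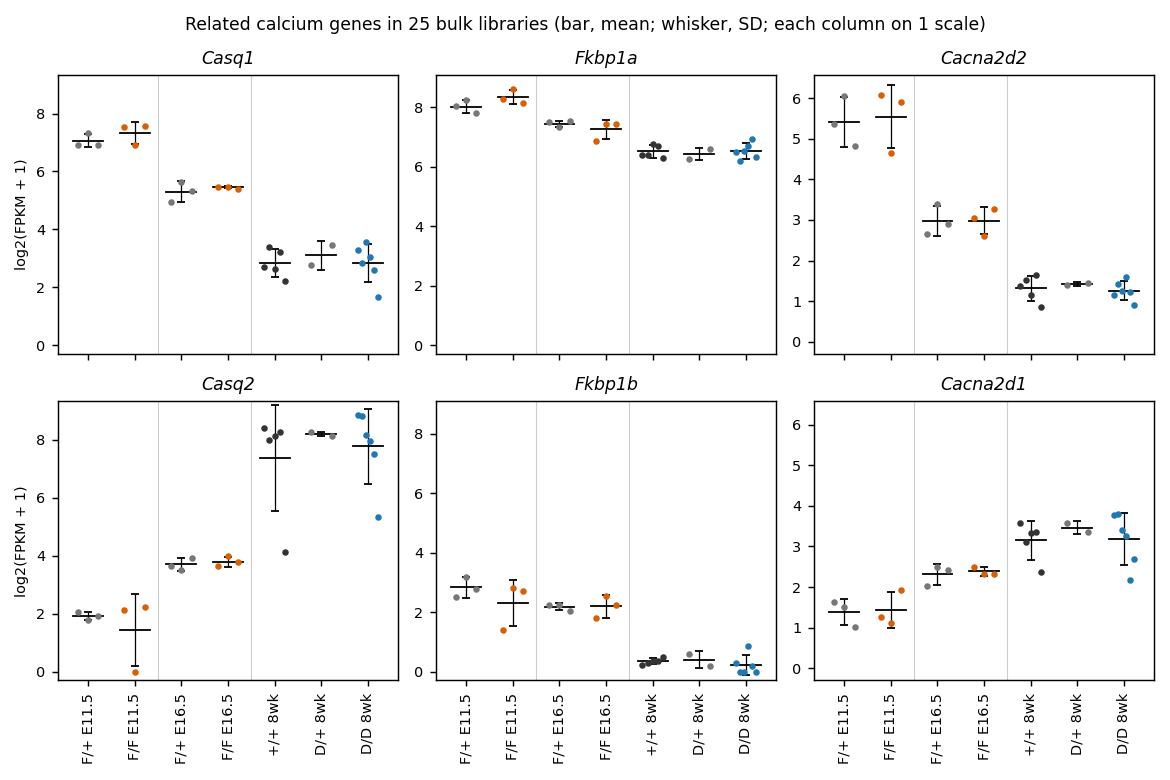
Levels of 3 pairs of related genes in the bulk libraries (log2(FPKM + 1) axis), by stage and genotype, with 1 point per library, bars at the mean and whiskers of 1 SD: Casq1 above Casq2, Fkbp1a above Fkbp1b, and Cacna2d2 above Cacna2d1. Casq1 falls while Casq2 rises over the stages, and Fkbp1a has the higher level of its pair in every library.

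Of 54 further calcium handling genes, 52 were in the bulk table. From E11.5 to E16.5 in F/+ 10 of 44 tested rose and 12 fell, and in F/F 12 rose and 12 fell, beside the shares of all genes given above. Those that rose most in F/+ were Adrb1, the beta-1 adrenergic receptor (log2 change 1.34, SE 0.31), Camk2d, the main cardiac calmodulin kinase (1.31), and Cav3, the muscle caveolin (1.28), and those that fell most besides Cacna2d2 and Casq1 included Atp2a1, the fast skeletal muscle pump (−1.70). In F/F they were Cacna1g (2.37), Camk2d (1.16) and Slc8a2 (1.02), against Cacna2d2 (−2.57), Casq1 (−1.88) and Atp2a1 (−1.76). From E16.5 F/+ to 8-week +/+ 13 of 45 rose and 22 fell. Hrc, the histidine-rich calcium binder of the store, rose from 63.2 to 792 FPKM (log2 change 3.63, SE 0.21, limma adjusted p = 6.59e-13), S100a1, a calcium sensor that binds Ryr2 and SERCA2, from 169 to 1754 FPKM (3.37) and Tmem38a, a store potassium channel, from 57.5 to 268 FPKM (2.21). Ppp1r1a, a phosphatase inhibitor, fell from 27.0 to 1.17 FPKM (−3.70) and Sri, the calcium-binding protein sorcin, from 34.2 to 6.72 (−2.18). With scaling to median ratios 15 rose and 12 fell at this step, of 44 tested. Between genotypes none of the 43 to 45 tested was called. In the fit over all 25 libraries Cacna1g, a T-type channel (log2 change −1.25, limma adjusted p = 0.0285), and Slc8a2, a relative of Slc8a1 (−1.12, adjusted p = 0.0326), were lower in E11.5 F/F than in F/+, and none was called in the other alternatives.

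The single-cell libraries gave the cell types at E11.5. Of 2563 and 3469 barcodes, 18 of them shared by both libraries, 2503 and 3368 cells were kept (+/+ and F/F). Median UMIs were 13369 and 13403 over all barcodes, and 13305 and 13339.5 over the kept cells. Cells fell into 19 clusters, made without the members, and 583 and 936 cells were cardiomyocyte-like by markers. Each genotype had 1 library, so no test was made, and the 95% intervals below are exact Poisson intervals that cover counting error only. In cardiomyocyte-like cells Pln was the highest member at 906 (887 to 926) and 786 (772 to 801) CPM, ahead of Atp2a2 (685 and 654), whereas the bulk E11.5 hearts had more Atp2a2 than Pln per length. Trdn (111 and 98.9), Ryr2 (109 and 112) and Jph2 (106 and 92.9) stood close together, then Cacna1c (37.9 and 31.7), Casq2 (13 and 10.8), Slc8a1 (12.5 and 14.1), Fkbp1b (10.8 and 11.1) and Sln (6.35 and 15.2). UMI counts from 3′ ends are not scaled by length.

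Outside cardiomyocyte-like cells the members were low, with exceptions. Atp2a2, which also serves the endoplasmic reticulum of other cells, was 49.3 to 78.2 CPM in the other named classes apart from erythroid-like cells, and 14.3 and 16.9 CPM in those. Fkbp1b was higher outside the muscle cells in immune-like cells (31.3 and 25.2 CPM) and in an unnamed cluster led by Rgs5 (35.2 and 36.9), and 14.2 and 13.7 in mesenchymal-like cells. In erythroid-like cells, which should lack the muscle genes, Pln was 8.38 and 13.4 CPM and had a UMI in 11% and 17.5% of cells (median UMIs 10909 and 11653), against 94.9% and 93.7% of cardiomyocyte-like cells (median UMIs 15192 and 14586). Ryr2 had a UMI in 72.6% and 71.9% of cardiomyocyte-like cells, and in 1.78% and 1.76% of erythroid-like cells. Thinned to 5000 UMIs per cell, the Ryr2 shares were 40.3% and 43.6% and those of Pln 91.0% and 87.5%. Casq1 was 131 and 123 CPM in cardiomyocyte-like cells, above Casq2 in the same cells, as in the bulk hearts of that day, and Fkbp1a was 731 and 754 CPM.

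The muscle clusters differed in the pump inhibitors. In a cluster led by Shox2 (35 and 72 cells), where 6 of 8 atrial and 3 of 5 sinus venosus markers were raised over the other muscle clusters but 1 atrial and 2 sinus venosus markers stood in its top 10 genes, so that it was given no chamber name, Pln was 153 and 164 CPM, against 905 and 921 in the trabecular-like cluster (219 and 235 cells), 964 and 768 in a Myl2-led cluster that no chamber list named (218 and 467 cells) and 984 and 851 in the outflow-like cluster (108 and 155 cells). The pump itself, Atp2a2, was highest in the Shox2-led cluster at 1010 and 996 CPM and lowest in the outflow-like one at 542 and 452. Sln had 0 UMIs in the trabecular-like cluster, which allows up to 0.789 and 0.804 CPM at 3 counts, and was 3.03 and 1.61 CPM in the Myl2-led one. It was 22.2 (10.1 to 42.1) and 42.3 (29.9 to 58.1) CPM in the Shox2-led cluster, from 9 UMIs in 3 cells and 38 UMIs in 7 cells. In the outflow-like cluster it was 24.4 (17.4 to 33.4) and 70.8 (60.3 to 82.7) CPM, from 39 UMIs in 14 cells and 160 in 27 cells, of which 5 cells held 119. The intervals treat each UMI as independent and do not cover the spread between cells. Casq2 was likewise higher in the outflow-like (30.7 and 27.0) and Shox2-led (22.2 and 33.4) clusters than in the trabecular-like (8.42 and 8.58) and Myl2-led (8.78 and 3.8) ones. Fkbp1b was 28.8 and 24.8 CPM in the outflow-like cluster and 6.57 and 6.43 in the trabecular-like one. Ryr2 had a narrower range, lowest in the outflow-like cluster at 83.2 and 68.2 CPM.

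**Figure D5:**
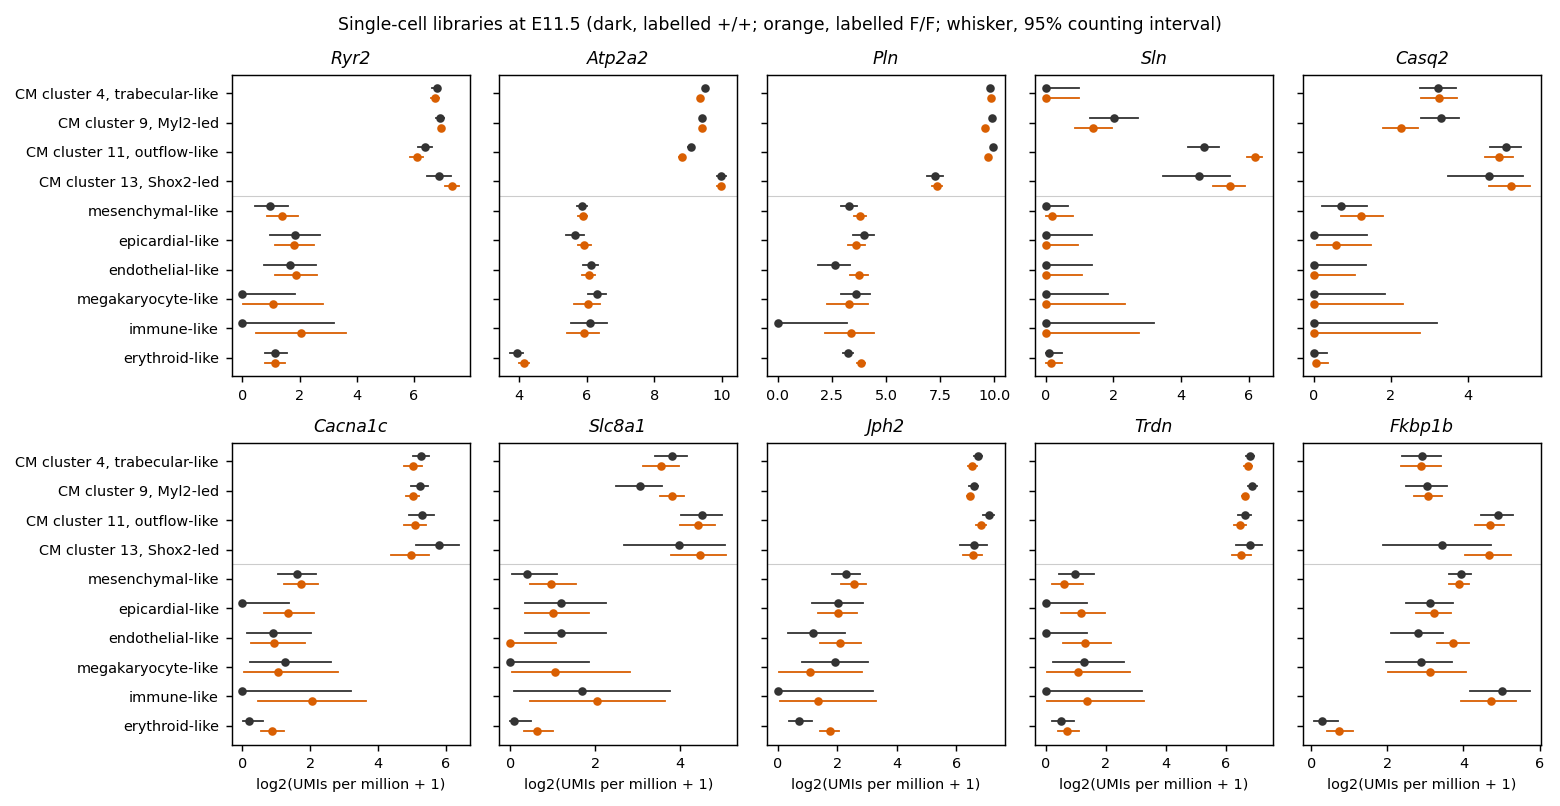
Level of each member (log2(CPM + 1) axis) in the named cell classes and in the cardiomyocyte-like (CM) clusters of the libraries labelled +/+ and F/F at E11.5, with exact Poisson 95% intervals. Both libraries lie close together for most members, Pln drops in the Shox2-led cluster, and Sln is found mainly in the outflow-like and Shox2-led clusters.

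Between the single-cell libraries the cardiomyocyte-like levels of the members were close. The few target UMIs run opposite to these labels without deciding them, and each ratio below turns its sign if the labels are exchanged. The log2 ratio of the library labelled F/F to that labelled +/+ was 0.04 for Ryr2 (−0.07 to 0.16), −0.07 for Atp2a2 (−0.11 to −0.02), −0.20 for Pln (−0.25 to −0.16), −0.19 for Jph2 (−0.31 to −0.07) and −0.17 for Trdn (−0.29 to −0.05). It was −0.26 for Cacna1c (−0.46 to −0.05), −0.27 for Casq2 (−0.63 to 0.09), 0.17 for Slc8a1 (−0.17 to 0.52) and 0.03 for Fkbp1b (−0.34 to 0.41). None of the 8 members with 100 UMIs or more in each library was past 1.5-fold, beside 1.42% of 7023 such genes, whose median log2 ratio was −0.05. The Pln ratio was not alike in all clusters, since the level in the library labelled F/F was close to that labelled +/+ in the trabecular-like cluster (921 and 905 CPM) and below it in the Myl2-led one (768 and 964). Sln had a ratio of 1.26 (0.83 to 1.7) as labelled, from 58 UMIs in 20 of 583 cells (3.43%, exact binomial 2.11 to 5.25%) and 209 UMIs in 40 of 936 cells (4.27%, 3.07 to 5.77%). A single cell of the library labelled F/F held 56 of them, 5 cells in each library held 65.5% and 65.6% of the UMIs, and the shares of cells with a UMI overlapped. In erythroid-like cells 0.104% and 0.16% had a Sln UMI.

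The gene whose level followed each member most closely over the 25 bulk libraries was sought among 7355 genes whose mean reached 5 FPKM, by Pearson r of log2(FPKM + 1). The libraries fall into 3 stages, so these values describe the stage pattern and carry no test. For the adult-high members they were Agtpbp1 for Ryr2 (r = 0.984), Ogdh for Atp2a2 (0.996), Acadm for Pln (0.995), Slain2 for Casq2 (0.985) and Aes for Jph2 (0.975). Ogdh and Acadm are mitochondrial enzymes of the citric acid cycle and of fatty acid breakdown. For the others they were Myo18b for Cacna1c (0.978), Efr3a for Slc8a1 (0.934), Prnp for Trdn (0.967), Col26a1 for Fkbp1b (0.964) and S100a13 for Sln (0.848), the lowest of the 10.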

How the data were processed

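The members and the lists of other calcium genes and markers were chosen with earlier results of these data known. The authors deposited 1 bulk table of FPKM for 25 libraries and 1 single-cell table of UMI counts for 2 libraries. That the bulk values are FPKM was read from the values and is not given in the sources used here. Per the labels' protocols bulk RNA was extracted with TRIzol, poly(A)-selected and made into stranded libraries, and the single cells into 10X 3′ libraries. Per the submitters' processing notes the bulk series used CASAVA, TopHat and TopHat2 2.0.11 with mm9, and the single cells Cell Ranger with mm10. FPKM hides the depth. Haemoglobin made up 10.4 to 29.7% of the E11.5 sums and at most 2.42% later. Rescaling without it moved the median log2 change from E11.5 to E16.5 from −0.176 to −0.178 in F/+ and from −0.163 to 0.148 in F/F.

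Genes whose mean reached 1 FPKM in the compared libraries entered limma 3.58.1 (R 4.3.3) on log2(FPKM + 1), with p adjusted by Benjamini-Hochberg over all genes tested and called under 0.05. Simulated data with 200 changed genes were made for the genotype tests at E11.5, E16.5 and 8 weeks (D/D against both controls). They were also made for E16.5 F/+ against E11.5 F/+ and 8-week +/+ against E16.5 F/+, but not for the other tests. Log2 ratios of 2 members were compared by exact two-sided permutation tests over libraries (scipy 1.17.1). Cells with at least 500 genes were kept, and the most doublet-like barcodes were removed at 0.8% per 1000 barcodes, since the automatic threshold marked 3 of 6019 (0.0498%). Clusters used scanpy 1.11.5, 2000 variable genes without the 62 calcium genes in the table, 30 components and resolution 1.0. Cell columns were tied to the libraries by their names. Every member is named. Of other calcium genes those called with the 3 largest changes in each direction are named, and the 1 gene most like each member. Alternatives were a pseudocount of 0.1, no filter, scaling to median ratios, rescaling without haemoglobin, a Y-linked covariate, a replicate block, other sample sets, and each library left out.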

Additional observations from a re-analysis of the deposited data

Results flagged for a closer look

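In groups of 4 to 10 libraries the highest and lowest library of each member was compared with its nearest neighbour, as the gap divided by the whole range of the group, against Dixon's 95% critical value. This was done in 20 groups, the 10 members in +/+ and in D/D at 8 weeks, and 5 libraries passed. Chance flags about 1 in 20 groups.

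Sln passed in both groups. The +/+ replicate 1 library, at 210.25 FPKM, stood apart from the rest with a gap of 0.872 of the range, and D/D replicate 2, at 205.06 FPKM, with a gap of 0.805. Both also had the highest Myl4, at 229 and 252 FPKM, and the part of atrial RNA was not tested.

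Pln and Casq2 passed in the library labelled +/+ replicate 5. Pln was 221.58 FPKM there, with a gap of 0.713 against a critical value of 0.71, and Casq2 was 16.58 FPKM, with a gap of 0.731. The same library had the targeted transcript at 0 FPKM and the strongest positive relation to transcript G and C share (r = 0.5). Fkbp1b passed in D/D replicate 4, at 0.83 FPKM with a gap of 0.747, a level near the low end of what the table lists.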

How the results depend on the processing

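The number of members called stayed within 1.5 times in every alternative run: 5 to 8 for E16.5 against E11.5 in F/+, 4 to 7 in F/F, 7 to 9 for 8-week +/+ against E16.5 F/+, and 0 in all genotype comparisons. The number of all genes called between genotypes was 1 at E11.5, 1 at E16.5 and 1 for the difference of both. At E11.5 it was 4 with rescaling without haemoglobin, 2 with a replicate block, 2 with the Y-linked covariate, 24 in the all-library fit and 1 to 2 without 1 replicate. At E16.5 it was 2 with a pseudocount of 0.1, 3 with the Y-linked covariate and 0 to 2 without 1 replicate. For the difference it was 2 with a pseudocount of 0.1, 3 with no filter, 2 with rescaling without haemoglobin, 6 in the all-library fit and 1 to 9 without 1 replicate. Of 41 member fold changes, 333 of 370 values under other alternatives and 273 of 300 with 1 replicate left out kept their direction and side of the threshold.

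Small changes that turned sign, none of them called, were these on the log2 scale. Trdn in D/D against both controls was 0.035 with the replicate block and 0.033 without +/+ replicate 5 and D/D replicate 6 (chosen after seeing the data), and against +/+ 0.009 and 0.11, with −0.30 to 0.009 without 1 replicate. Slc8a1 at E16.5 was −0.23 in F/+ and −0.065 in F/F with the G and C trend removed, and −0.16 to 0.27 and −0.076 to 0.56 without 1 replicate. In F/F Fkbp1b was 0.039 with median ratios, 0.19 without haemoglobin and −0.56 to 0.14 without 1 replicate, and Ryr2 was 0.088, 0.24, 0.053 with the G and C trend removed and −0.46 to 0.16. Cacna1c at 8 weeks was −0.12 without haemoglobin. Without 1 replicate Casq2 in the difference of genotype effects was −0.16 to 0.95 and Sln between E11.5 genotypes −0.038 to 1.37.

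Log2 ratios of Sln to Pln at a pseudocount of 0.1 were 0.52 between E16.5 genotypes, −2.57 for E16.5 against E11.5 F/+ and 0.93 at 8 weeks against E16.5. Without 1 replicate they were −0.23 to 0.14 between E16.5 genotypes, −0.19 to 0.57 for the F/+ stages and −1.34 to 0.074 for F/F. Without 1 replicate Pln to Atp2a2 between genotypes was −0.18 to 0.13 at E11.5, −0.017 to 0.34 at E16.5, −0.046 to 0.16 at 8 weeks and −0.068 to 0.23 against +/+. Ryr2 to Cacna1c was −0.02 to 0.42 at E11.5, −0.20 to 0.13 at 8 weeks and −0.14 to 0.25 against +/+. Thinned to 5000 UMIs, the single-cell log2 ratio was 0.20 for Ryr2 and −0.018 for Atp2a2.

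Not every pair of same-numbered libraries deviated together, so the numbers were not taken to pair them: same-numbered deviations correlated at −0.04, −0.02 and 0.08 at E11.5, at −0.08, 0.04 and −0.44 at E16.5 and at 0.53, 0.42, −0.04, −0.11 and 0.21 at 8 weeks, and not every library correlated best with its own number. With the replicate block 6, 5 and 8 members were called in the stage comparisons and 0 between genotypes. The depth behind FPKM is unknown, so no interval can be given for low values such as Fkbp1b in the adult or Trdn at E11.5.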
